A study of Homo sapiens with 8 samples.

Results

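The 6 genes described here encode the human machinery that attaches the small protein ISG15 to other proteins and removes it again. They were chosen by gene symbol and comprise the modifier ISG15, the activating enzyme UBA7, the conjugating enzyme UBE2L6, the ligases HERC5 and HERC6 and the protease USP18. Each symbol matched 1 row among the 60282 genes listed, and all 6 genes passed the filter on low expression that left 14073 genes for testing.

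RNA was sequenced from SK-UT-1 cells, an established human uterine leiomyosarcoma line. Cells treated with 5 µM TP-472, an inhibitor of the bromodomain proteins BRD9 and BRD7, for 48 h (TP-472, n = 4 libraries) were compared with cells given the solvent DMSO (vehicle, n = 4 libraries). The comparison asked which transcripts changed when BRD9 was inhibited. The model is a single cell line, and the study's methods speak of biological replicates for its experiments in general. The sample descriptions do not say whether the 4 libraries of a group came from separate cultures, so the p-values measure the spread between these libraries, which may be technical. The libraries held 32574672 to 38545464 estimated counts. Of the smooth muscle markers, CALD1, a regulator of contraction, was the most abundant, and ACTA2, the smooth muscle actin, averaged 160 CPM (counts per 1e6 of the library after TMM scaling) in vehicle and 109 CPM with TP-472. The defining markers MYH11, the smooth muscle myosin, and MYOCD, the master regulator of the lineage, were near 0, at 0.00703 and 0.0418 CPM in vehicle. With TP-472 they were higher, at 0.236 and 0.0874 CPM, and neither passed the filter. The 9 smooth muscle markers summed to 439 to 524 CPM in the vehicle libraries and 371 to 380 CPM in the TP-472 libraries, and the part of this shift in the results below was not tested. Of the 7 markers tested 3 were lower, against 14.9% of all genes tested, with a median log2 fold change of −0.67. They were TAGLN, an actin-binding protein (−0.67), and at low levels the muscle filament protein desmin, encoded by DES (−2.36, from 3.25 to 0.629 CPM), and LMOD1, an actin nucleator (−1.84, from 2.53 to 0.702 CPM), the last 2 named after their values were seen. DES and LMOD1 were over 1 CPM in every vehicle library and in no TP-472 library. They thus passed the filter only through the group where they were high, so their calls carry no weight. ACTA2 (−0.55), SMTN (−0.68), CNN1 (0.13) and CALD1 (−0.06) were not called. Without vehicle replicate 3 DES and LMOD1 did not pass the filter, and TAGLN (−0.65) and ACTA2 (−0.60) were called lower. There 13.1% of all genes were called lower, and the median of the markers was −0.14.

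ISG15 is a ubiquitin-like protein that is joined to lysines of target proteins through a cascade of E1, E2 and E3 enzymes. UBA7 activates it, UBE2L6 carries it and a HERC ligase, mainly HERC5 in human cells, transfers it to proteins, many of them freshly made. USP18 cuts it off again and separately restrains type I interferon signalling by binding the receptor subunit IFNAR2. All 6 genes are classical interferon-stimulated genes, a class of genes that is switched on through interferon-stimulated response elements in promoters.

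Promoter sequences were found in RefSeq (GRCh38.p14) for ISG15, UBE2L6, HERC5 and HERC6, that is, for 4 of the 6 genes. UBA7 and USP18 are named only. The core of the interferon-stimulated response element was searched as GAAANNGAAA on the strand of the gene and as TTTCNNTTTC for the opposite strand, from 250 bases before to 50 bases after each start. It was present in ISG15 and HERC5 and absent as these letters from the windows of UBE2L6 and HERC6. The 2 sequences that carry it are shown because they place the motif relative to the start of the gene, with the motif in capitals and only bases outside every annotated exon printed. The ISG15 start used by RefSeq lies within the longer gene of GENCODE 29, so the ISG15 bases lie in an intron of its longest transcript.
ISG15 promoter, chr1:1013247-1013422, plus strand: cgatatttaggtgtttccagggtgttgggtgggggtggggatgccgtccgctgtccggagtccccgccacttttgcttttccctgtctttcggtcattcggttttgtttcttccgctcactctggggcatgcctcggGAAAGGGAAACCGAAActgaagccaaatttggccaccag
HERC5 promoter, chr4:88456869-88457116, plus strand: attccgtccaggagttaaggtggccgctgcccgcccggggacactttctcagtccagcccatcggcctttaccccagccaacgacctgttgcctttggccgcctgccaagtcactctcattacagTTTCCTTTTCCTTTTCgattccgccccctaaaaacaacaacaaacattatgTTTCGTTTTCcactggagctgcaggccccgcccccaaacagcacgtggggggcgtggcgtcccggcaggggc
In ISG15 the matches GAAAGGGAAA and GAAACCGAAA overlap and lie 113 to 98 bases before the start. In HERC5 a pair of overlapping matches lies 125 to 110 bases and a single match 74 to 65 bases before the start, all on the opposite strand. The same letters occurred in 4.38% of all 27305 promoters of this length. They occurred in 6.42% of the promoters of genes called lower with TP-472, in 3.65% of those called higher and in 3.43% of those not called. This is a description of letters in a window, not of binding.

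One library stood apart before any gene was considered. Vehicle replicate 3 had a median Spearman correlation of 0.914 with the other vehicle libraries, whereas vehicle replicates 1, 2 and 4 had medians of 0.988, 0.988 and 0.989 and the TP-472 libraries medians from 0.993 to 0.997. Its total, 32574672 counts, was also the lowest. Results that rest on it are therefore given with and without it. The groups also differed in the number of genes with a count, 23325 to 23939 in vehicle and 25363 to 26211 with TP-472, and in the share of mitochondrial transcripts, 0.285% to 0.424% in vehicle and 0.199% to 0.282% with TP-472. The part of these differences in the results was not tested.

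All 6 genes of the ISG15 machinery were lower in TP-472-treated cells. UBA7 fell the most, to 18.6% of its vehicle level, followed by ISG15 at 30.1% and HERC6 at 41.2%. USP18, UBE2L6 and HERC5 were at 51.8%, 53.1% and 56.8% of vehicle. With each library's trend with GC content removed, UBA7 was still the lowest (log2 fold change −2.13), but HERC6 (−1.33) lay below ISG15 (−1.26). A gene was called at an adjusted p under 0.05 and a fold change over 1.5 in edgeR's quasi-likelihood test, and by this rule 6 of 6 were called lower, against 14.9% of the 14073 genes tested. Their median log2 fold change was −1.11, against −0.026 over all genes tested. Without vehicle replicate 3 all 6 were still called lower, against 13.1% of 13879 genes. In bulk RNA a lower level per cell and fewer expressing cells cannot be told apart.

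ISG15 (ENSG00000187608.10, chr1:1001138-1014540, plus strand, GENCODE 29 on GRCh38) is the modifier itself. Its level was 222, 224, 419 and 217 CPM in vehicle replicates 1 to 4 and 75.0, 90.6, 96.9 and 62.6 CPM in TP-472 replicates 1 to 4. The vehicle libraries were all higher than the TP-472 libraries, and vehicle replicate 3 was 1.90 times the mean of the other 3 vehicle libraries. The mean decreased from 270 ± 99.0 to 81.3 ± 15.5 CPM (SD, n = 4 each). The fitted log2 fold change was −1.73 (SE 0.248, edgeR adjusted p = 0.00125). Without vehicle replicate 3, the other vehicle libraries averaged 221 ± 3.28 CPM (SD, n = 3) and the log2 fold change was −1.45. A group of 4 libraries against 4 cannot give an exact two-sided permutation p below 0.0286, which is the value for ISG15 and for each of the other 5 genes, since for none of them did the groups overlap. In all, 21.6% of the genes tested had every TP-472 library below every vehicle library.

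UBA7 (ENSG00000182179.13, chr3:49805207-49813946, minus strand) encodes the E1 enzyme that activates ISG15 and is the entry point of the cascade. Its level was 25.0, 25.4, 38.0 and 26.1 CPM in the vehicle libraries and 5.82, 5.05, 6.08 and 4.33 CPM in the TP-472 libraries. As for ISG15, vehicle replicate 3 was the highest, here 1.49 times the mean of the others. The groups were far apart, the lowest vehicle library lying well above the highest TP-472 library. The log2 fold change was −2.43 (SE 0.187, edgeR adjusted p = 7.81e-05), and −2.27 without vehicle replicate 3. Only 0.384% of the genes tested had a log2 fold change this low or lower. The TP-472 values rest on 164 to 225 counts per library.

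UBE2L6 (ENSG00000156587.16, chr11:57551656-57568284, minus strand) encodes the E2 enzyme that receives ISG15 from UBA7. Its level was 43.5, 53.8, 40.2 and 49.99 CPM in vehicle and 24.5, 26.7, 26.9 and 21.5 CPM with TP-472. Here vehicle replicate 3 was the lowest vehicle library and not the highest, yet it remained above every TP-472 library. The log2 fold change was −0.91 (SE 0.131, edgeR adjusted p = 0.00128), and −0.98 without vehicle replicate 3.

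HERC5 (ENSG00000138646.9, chr4:88457117-88506163, plus strand) encodes the main human ISG15 ligase, which sits on ribosomes. Its level was 52.8, 59.3, 41.5 and 56.0 CPM in vehicle and 28.9, 30.1, 32.0 and 28.1 CPM with TP-472. Vehicle replicate 3 was again the lowest of its group, and the TP-472 libraries lay close together. The log2 fold change of −0.82 (SE 0.128, edgeR adjusted p = 0.00192) was the smallest fall of the 6 genes in the fit on all 8 libraries, and 12.9% of the genes tested had a lower value. It was −0.92 without vehicle replicate 3. With the GC trend removed HERC5 was at −0.89 and UBE2L6, at −0.73, had the smallest fall.

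HERC6 (ENSG00000138642.15, chr4:88378739-88443111, plus strand) lies next to HERC5 and encodes a related protein, which is the main ISG15 ligase in the mouse and has a lesser role in human cells. Its level was 47.2, 40.3, 37.3 and 38.8 CPM in vehicle and 16.4, 16.3, 17.3 and 17.4 CPM with TP-472. The 4 TP-472 libraries were almost alike, with a standard deviation that was small beside the distance between the groups. The log2 fold change was −1.28 (SE 0.111, edgeR adjusted p = 1.21e-04), and −1.33 without vehicle replicate 3.

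USP18 (ENSG00000184979.10, chr22:18149899-18177397, plus strand) encodes the protease that removes ISG15. Its level was 30.0, 33.5, 31.2 and 34.004 CPM in vehicle and 16.0, 17.7, 18.1 and 14.8 CPM with TP-472. USP18 was the gene on which vehicle replicate 3 did not lie at either end of its group. The log2 fold change was −0.95 (SE 0.112, edgeR adjusted p = 5.02e-04), and −0.97 without vehicle replicate 3. USP41, a near-identical copy of USP18 whose reads the counting could have split from it, was estimated at 3.62, 1.08, 0 and 0 counts in vehicle and at 0 in all 4 TP-472 libraries.

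**Figure D1:**
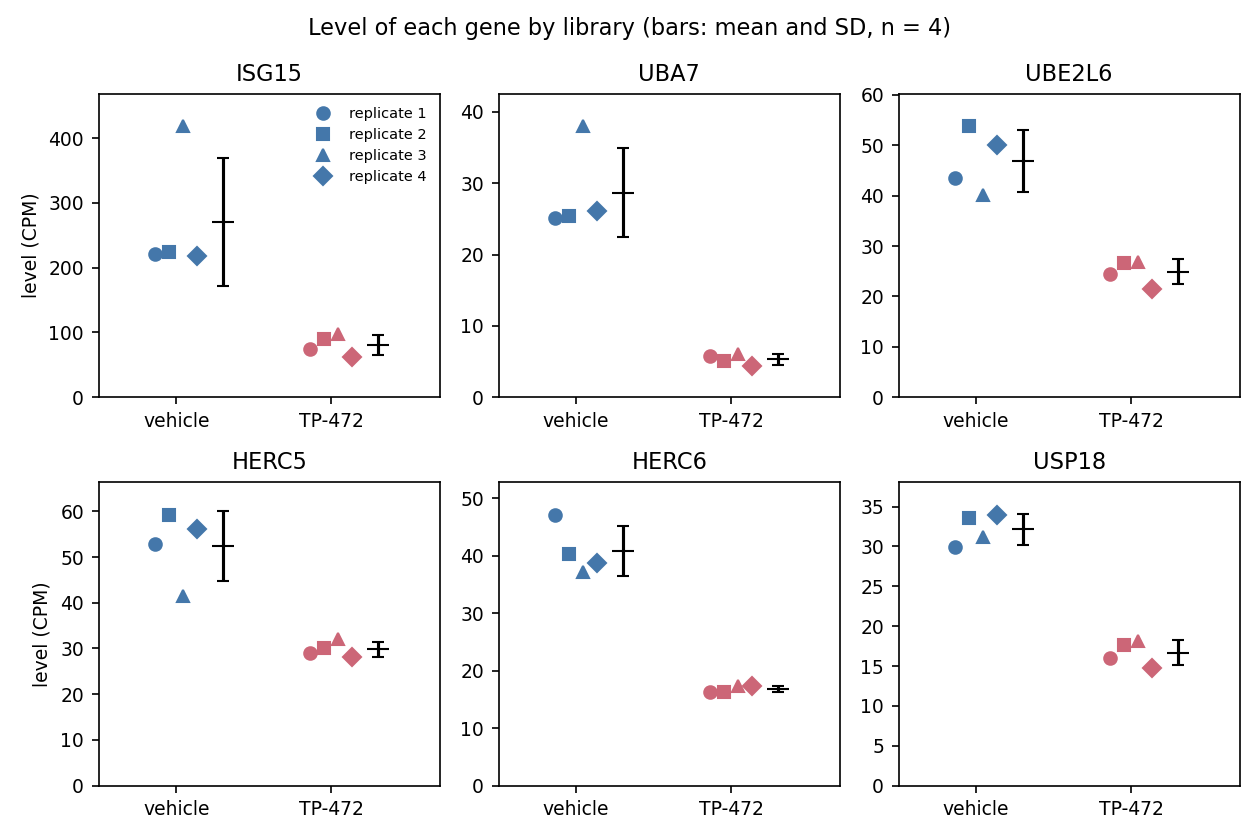
Level of each gene in CPM (y axis, starting at 0 in each panel) in the vehicle and TP-472 libraries, 1 point per library with a marker for each replicate number, and the mean and SD of each group (n = 4) as black bars. In all 6 panels every TP-472 point lies below every vehicle point, and vehicle replicate 3 (triangle) is the highest vehicle point for ISG15 and UBA7 and the lowest for UBE2L6, HERC5 and HERC6.

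The 6 genes did not start from the same level. Levels were divided by transcript length. The longest GENCODE 29 transcript tagged as basic was used, or the longest of all where none had the tag. In vehicle ISG15 was at 344 CPM per kb, with UBE2L6 next at 29.8 CPM per kb. USP18 was at 15.1, HERC5 at 14.9, HERC6 at 10.8 and UBA7 at 8.68 CPM per kb (means, n = 4). ISG15 thus ranked between place 54 and place 137 of 19850 protein-coding genes in the vehicle libraries, while UBA7, which activates it, ranked between 4945 and 6576. In vehicle, the range of HERC5 overlapped with those of USP18 and HERC6, and the range of HERC6 overlapped with that of UBA7. Within each vehicle library, however, HERC5 was above HERC6. HERC6 was above UBA7 except in replicate 3, and HERC5 was above USP18 in replicates 1 and 2 alone. The overlaps of HERC6 with HERC5 and with UBA7 came from vehicle replicate 3. In the other vehicle libraries HERC5 was at 15.03 to 16.9, HERC6 at 10.3 to 12.5 and UBA7 at 7.59 to 7.91 CPM per kb, and only HERC5 and USP18 overlapped. With TP-472 the means were 103 for ISG15, 15.8 for UBE2L6, 8.48 for HERC5, 7.83 for USP18, 4.45 for HERC6 and 1.61 CPM per kb for UBA7. Only HERC5 and USP18 overlapped there, and HERC5 was above USP18 within each TP-472 library. ISG15 then ranked between 381 and 576 and UBA7 between 9891 and 10466.

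**Figure D2:**
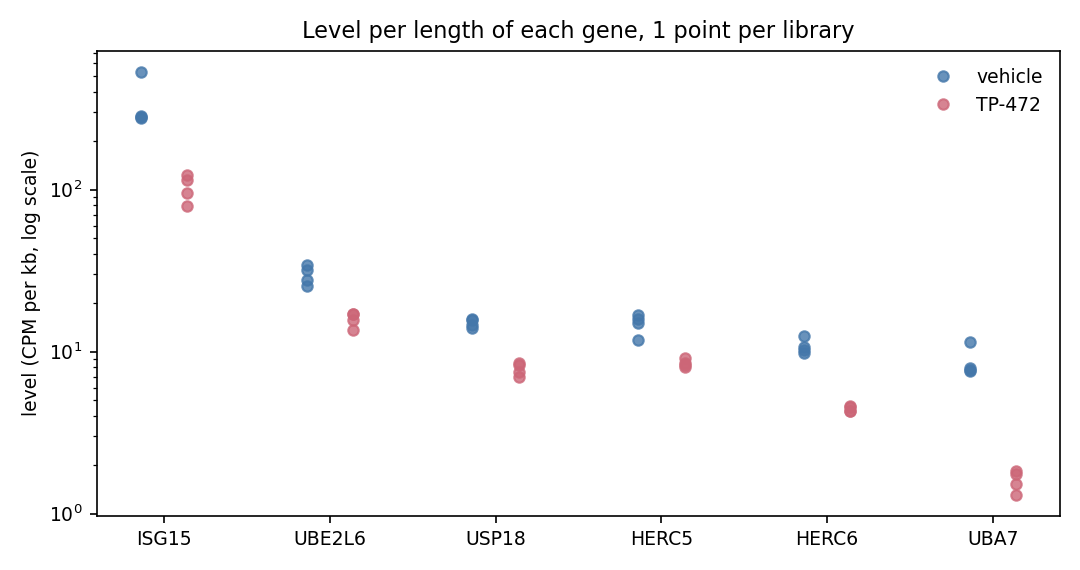
Level per length of each gene in CPM per kb (y axis, log scale), 1 point per library, with genes ordered by their vehicle mean. ISG15 is the most abundant and UBA7 the least abundant in both groups, and the distance between the groups is widest for UBA7.

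Whether the genes fell by the same factor was tested on the ratio of 2 genes within a library, a measure that does not depend on how the libraries are scaled. All 15 pairs were compared with an exact two-sided permutation test over the 70 assignments of the libraries, adjusted over the 15 pairs by the Benjamini-Hochberg method. The fall differed in 9 pairs (adjusted p = 0.0476 for each, exact permutation p = 0.0286, the smallest the design allows). UBA7 fell more than each of the other 5 genes. The log2 differences were 0.71 relative to ISG15 (1.64-fold), 1.13 to HERC6, 1.46 to USP18 and 1.60 to HERC5, with UBE2L6 between USP18 and HERC5. Without vehicle replicate 3 the log2 ratios of UBA7 to HERC6, UBE2L6, USP18 and HERC5 changed by −0.95, −1.28, −1.30 and −1.35. The log2 ratio of ISG15 to UBA7 changed by 0.80 there. With the GC trend removed, these changes were −0.80, −1.46, −1.24, −1.24 and 0.86 in the same order. The transcript of the activating enzyme therefore became scarcer relative to its own substrate, and the log2 ratio of ISG15 to UBA7 rose from 3.20 ± 0.179 to 3.91 ± 0.204 (SD, n = 4 each).

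ISG15 in turn fell more than USP18, UBE2L6 and HERC5, with differences of −0.74, −0.79 and −0.89. These 3 differences leaned on vehicle replicate 3 and were −0.50, −0.48 and −0.55 without it, where 3 libraries against 4 cannot give an exact permutation p below 0.0571. With each library's trend of log2 CPM with GC content removed, which was tried only once the data were known, the differences from USP18 and HERC5 were −0.38 and −0.38 and that from UBE2L6 was −0.60 (adjusted p = 0.0429 for each, exact permutation test). HERC6 fell more than its neighbour HERC5, by 0.47, and leaving out single libraries moved this difference between 0.40 and 0.54.

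The other 6 pairs did not pass. ISG15 and HERC6 differed by −0.42 (exact permutation p = 0.229), with values from −0.57 to −0.15 when 1 library was left out and of 0.056 with the GC trend removed, where the sign turned. For HERC6 and USP18 the difference was −0.32 (exact permutation p = 0.0571), and for UBE2L6 and HERC6 it was 0.37 (exact permutation p = 0.0857). The latter pair passed with the GC trend removed, at 0.65 (adjusted p = 0.0429, exact permutation test). UBE2L6 differed from HERC5 by −0.10 (exact permutation p = 0.2) and from USP18 by 0.04 (exact permutation p = 0.657), and HERC5 differed from USP18 by 0.15 (exact permutation p = 0.2). With the GC trend removed these 3 differences were 0.21, 0.22 and 0.0058, and without vehicle replicate 3 they were −0.067, −0.014 and 0.053, so that the first turned sign in the former and the second in the latter. These p-values miss the threshold and do not show that the genes fell alike.

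**Figure D3:**
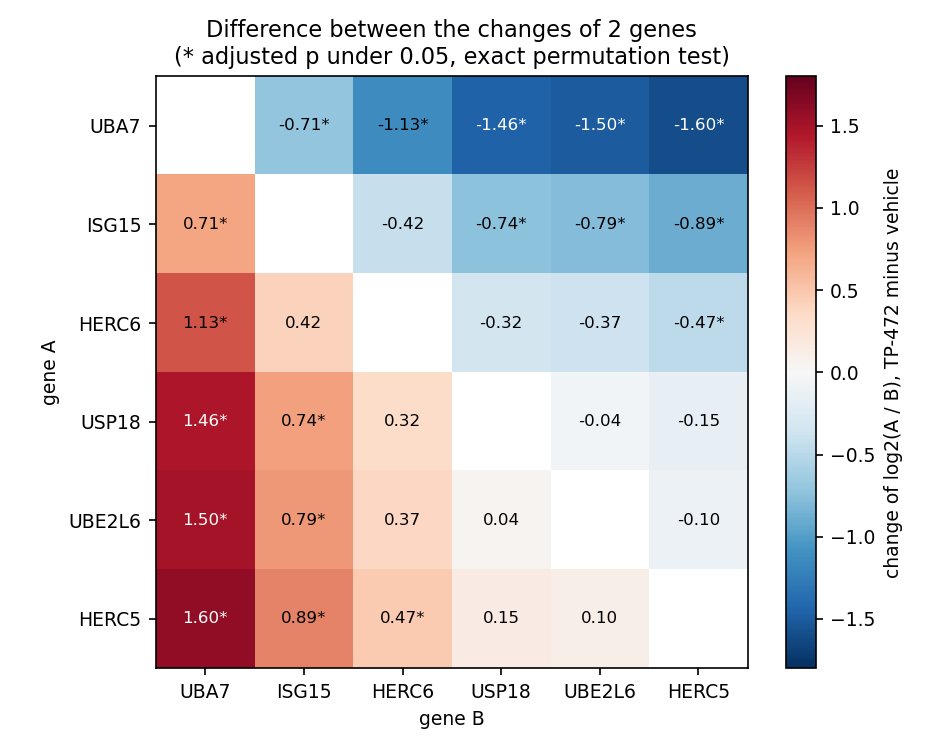
Difference between the changes of 2 genes, as the change of the log2 ratio of gene A (rows) to gene B (columns) from vehicle to TP-472, with asterisks for an adjusted p under 0.05 in the exact permutation test. The UBA7 row is negative throughout, from −0.71 against ISG15 to −1.60 against HERC5, and USP18, UBE2L6 and HERC5 differ from each other by 0.15 or less.

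Each gene was then set beside the other members of its own protein family, since ubiquitin and several related modifiers use parallel cascades. Among 17 other ubiquitin-like modifiers tested, 2 were higher and 2 lower with TP-472, with a median log2 fold change of 0.44. Of all genes tested, 12.0% were called higher and 26.9% in either direction. The modifiers called were UFM1 (1.27), which forms a conjugation system of its own, and the autophagy modifiers MAP1LC3B (0.59), MAP1LC3A (−0.76) and GABARAP (−0.87). Without vehicle replicate 3, 1 was called higher and 1 lower, against 1660 and 1814 of all 13879 genes, and the median was 0.26. MAP1LC3B (0.53) and MAP1LC3A (−0.46) did not reach 1.5-fold there, nor with the GC trend removed (0.576 and −0.26). None of the 17 fell as far as ISG15 at −1.73.

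Among 9 other E1 enzymes, MOCS3, which activates the modifier URM1, was higher (0.65) and none lower, against 12.0% and 14.9% of all genes tested. The median of the 9 was 0.15 with all 8 libraries and −0.012 without vehicle replicate 3. UBA1, the main ubiquitin E1, was at 565, 549, 745 and 573 CPM in vehicle and 430, 443, 433 and 398 CPM with TP-472, a log2 fold change of −0.51 (SE 0.125, edgeR adjusted p = 0.0135) that did not reach 1.5-fold. UBA7 fell by 2.43 on the same scale.

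Among 35 other protein-coding E2 enzymes tested, 3 were higher and 1 lower, against 12.0% and 14.9% of all genes tested. The median of these E2 enzymes was 0.21 (0.11 without vehicle replicate 3). UBE2F (0.76), which serves NEDD8, UBE2N (0.75), which builds chains linked through lysine 63 together with an inactive partner and is itself a reported ISG15 target, and UBE2D1 (0.71) were called higher, and UBE2H (−0.67) was called lower. UBE2D1 did not reach 1.5-fold without vehicle replicate 3 (0.53). With the GC trend removed UBE2H (−0.72) and UBE2L6 (−0.73) lay close together, and their difference was not tested. UBE2L3, the closest relative of UBE2L6 and an E2 for ubiquitin, was at 93.2, 116, 73.6 and 121 CPM in vehicle and 147, 147, 159 and 142 CPM with TP-472. All its TP-472 libraries were above its vehicle libraries, opposite to UBE2L6, and its log2 fold change of 0.56 (SE 0.158, edgeR adjusted p = 0.0239) did not reach 1.5-fold.

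In the HERC family, named for a HECT domain that transfers the modifier and an RCC1-like domain, HERC2 was lower (−0.63, edgeR adjusted p = 0.0163), but it did not reach 1.5-fold without vehicle replicate 3 (−0.49). HERC1 was at −0.33, HERC3 at 0.13 and HERC4 at 0.08, none of them called, and without vehicle replicate 3 they were at −0.40, 0.087 and −0.056. HERC3, which lies in the same cluster on chromosome 4 as HERC5 and HERC6, was at 2.40 to 2.96 CPM in vehicle and 2.19 to 3.46 CPM with TP-472, so that its groups overlapped. Among 45 other USP proteases, 2 were higher and 4 lower, against 12.0% and 14.9% of all genes tested. The median of these proteases was −0.076 (−0.17 without vehicle replicate 3). USP53 (2.26) and USP38 (0.89) were called higher, and USP21 (−1.04), USP49 (−0.70), USP13 (−0.64) and USP20 (−0.63) were called lower. Without vehicle replicate 3 the counts were 3 higher and 2 lower, against 1660 and 1814 of all 13879 genes. USP49 and USP20 did not reach 1.5-fold there. USP21 was at 22.1, 16.9, 35.5 and 16.7 CPM in vehicle and 9.57 to 12.3 CPM with TP-472. Its log2 fold change was −0.75 without vehicle replicate 3 and −0.73 with the GC trend removed, against −0.97 and −0.90 for USP18, and the difference between the falls of both genes was not tested.

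**Figure D4:**
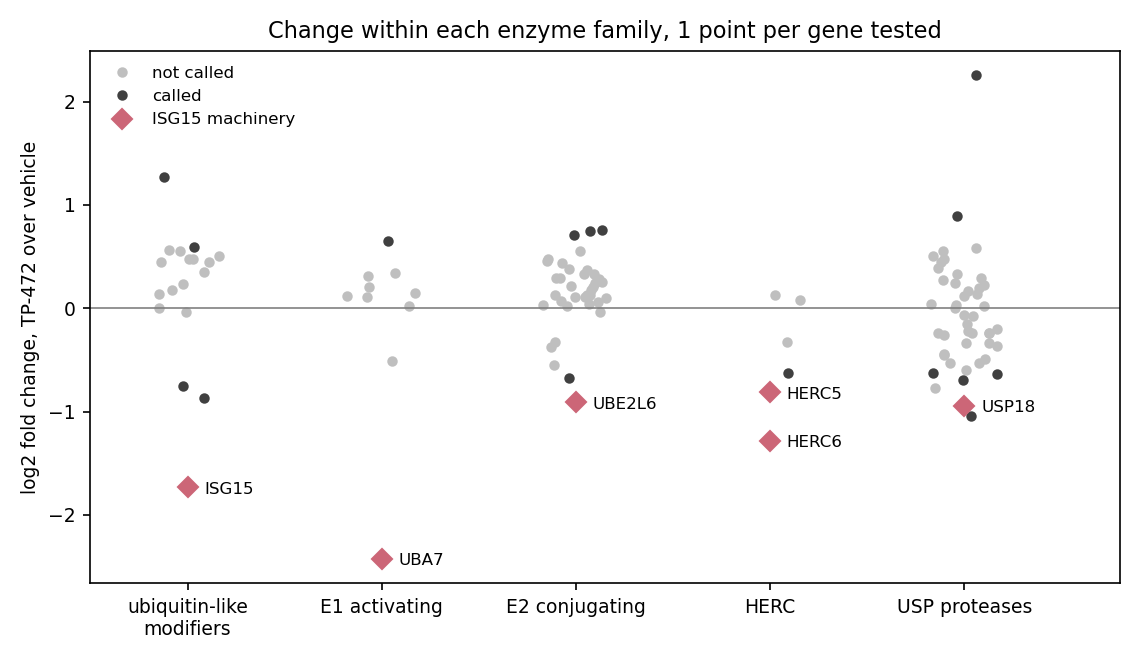
Log2 fold change (y axis) of every tested protein-coding member of each family, 1 point per gene (dark for called, light for not called, spread sideways at random), with the 6 genes of the ISG15 machinery as diamonds. In this fit on all 8 libraries, ISG15, UBA7, UBE2L6 and HERC6 are the lowest points of their families, and USP21 lies below USP18.

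The SUMO and NEDD8 systems work through comparable cascades. Of 14 SUMO genes, 2 were lower, a share near the 14.9% of all genes tested, the protease SENP7 (−0.73) and the ligase PIAS3 (−0.70), and the median was 0.086. PIAS3 did not reach 1.5-fold without vehicle replicate 3. Of 10 NEDD8 genes, 3 were higher and none lower, against 12.0% and 14.9% of all genes tested. The 3 were the cullin partner RNF7 (0.90), DCUN1D5 (0.81) and UBE2F. The NEDD8 median of 0.25 rested on vehicle replicate 3 and was 0.020 without it. There 3 genes were again higher, against 1660 of all 13879 genes.

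Other proteins have been reported to add or remove ISG15. TRIM25, a ligase for both ubiquitin and ISG15 that activates RIG-I, had a log2 fold change of −0.38 (edgeR adjusted p = 0.0563) and ARIH1 one of −0.0097, and neither was called. The values without vehicle replicate 3 were −0.28 and −0.13, again not called. Of 6 other reported proteases, USP13 and USP21 were called lower, as given above, where 14.9% of all genes tested were lower. USP2 (−0.45), USP5 (−0.25), USP14 (0.02) and USP16 (0.56) were not called, and without vehicle replicate 3 they were at −0.19, −0.23, −0.025 and 0.35. Among 22 proteins reported as targets of ISG15, 8 transcripts were lower and 1, UBE2N, was higher, against 14.9% and 12.0% of all genes tested, with a median of −0.069 (−0.17 without vehicle replicate 3). The 4 that fell furthest were the antiviral proteins MX1 (−2.23), IFIT1 (−2.06) and IFIT3 (−1.77) and the RNA sensor RIG-I, encoded by DDX58 (−1.59). These 4 are themselves induced by interferon, so the list overlaps in kind with the machinery.

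The genes that control the machinery were read from a list of interferon signalling genes. Of 13 tested, 6 were lower and none higher, with a median of −0.53, where 14.9% of all genes tested were lower. Without vehicle replicate 3, 4 were lower with a median of −0.43, against 13.1% of all genes. IRF9, a DNA-binding factor of interferon signalling, was at 47.0, 53.6, 68.7 and 50.4 CPM in vehicle and 18.9, 19.5, 20.3 and 15.5 CPM with TP-472. Its log2 fold change was −1.57 (SE 0.150, edgeR adjusted p = 2.08e-04).

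STAT2, a signal transducer of the type I interferon receptor, was at 99.1, 91.3, 115 and 88.5 CPM in vehicle and 38.5, 36.8, 37.4 and 35.6 CPM with TP-472 (log2 fold change −1.41, SE 0.111, edgeR adjusted p = 8.05e-05). For both genes the groups did not overlap. Vehicle replicate 3 was the highest vehicle library for IRF9 and STAT2, as for ISG15 and UBA7. IRF7, which amplifies the interferon response, was at −1.50, the receptor-bound kinase TYK2 at −0.76 and IRF2 at −0.69, all called lower. TYK2 and IRF2 did not reach 1.5-fold without vehicle replicate 3, at −0.52 and −0.58.

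The receptor chains IFNAR1 (0.08) and IFNAR2 (−0.25), the kinase JAK1 (−0.02), the factors IRF1 (−0.36) and IRF3 (−0.53) and the inhibitors SOCS3 (0.13) and PIAS1 (−0.34) were not called, and SOCS1 was below the filter. Leaving out vehicle replicate 3 gave 0.039, −0.19, −0.088, −0.24, −0.30, 0.30 and −0.43 for these 7 genes in the same order, none of them called. Of 21 interferon genes listed, only IFNE, an interferon of the reproductive tract, passed the filter. It had 206, 110, 169 and 92 counts in vehicle and 74, 65, 49 and 133 counts with TP-472, its groups overlapped and it was not called (−0.92, edgeR adjusted p = 0.0655), but it was called lower with the GC trend removed (−1.20, edgeR adjusted p = 0.0399). IFNB1 had 3, 2, 1 and 0 counts in vehicle and 4, 5, 0 and 0 counts with TP-472, at or near the floor of these libraries. Among leukocyte markers, CD68 was the most abundant, CD3E and NKG7 were at 0 in every library and PTPRC was at or near 0. The 10 leukocyte markers summed to 7.54 to 9.12 CPM in vehicle and 10.7 to 14.2 CPM with TP-472. The 7 epithelial markers, with KRT18 the most abundant, summed to 18.4 to 24.3 CPM in vehicle and 21.8 to 28.3 CPM with TP-472, and the 5 endothelial markers to 0.139 to 0.365 and 0.705 to 0.925 CPM. KRT18 was called higher (1.08) and KRT19 lower (−0.85), both keratins of simple epithelia. The part of these markers in the results was not tested.

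**Figure D5:**
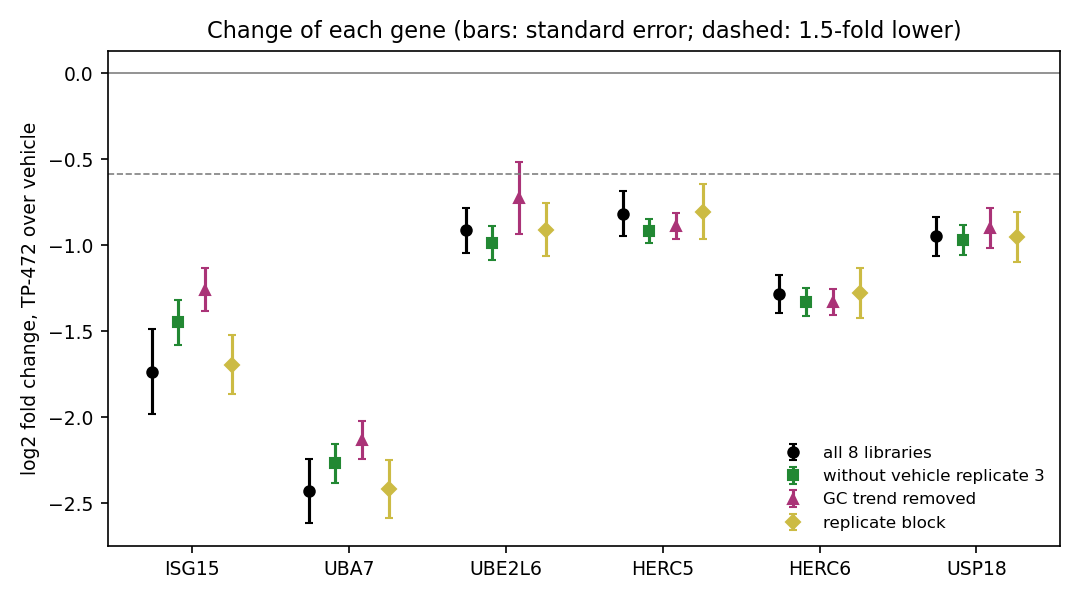
Log2 fold change of each gene (y axis) from vehicle to TP-472 with its standard error, in the fit on all 8 libraries, without vehicle replicate 3, with the GC trend removed and with the replicate number as a block. All values lie below the dashed line for a 1.5-fold decrease, and ISG15 and UBA7 move most between the fits.

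The genes next to the machinery did not all share its direction. AGRN, which lies beside ISG15 and encodes the matrix protein agrin, had a log2 fold change of −1.49 (SE 0.455, edgeR adjusted p = 0.0322). Its value rested in part on vehicle replicate 3, which was at 110 CPM against 24.8 to 37.2 CPM in the other vehicle libraries, and it was −0.74 without that library. HES4, on the other side of ISG15, was at −0.95 and not called (edgeR adjusted p = 0.125), and it was −0.25 without vehicle replicate 3. TIMM10, which neighbours UBE2L6 and encodes a mitochondrial import protein, was called higher (0.71), but did not reach 1.5-fold without vehicle replicate 3 (0.57). Of the 7 neighbours and close copies tested, TIMM10 was the only one called higher and AGRN the only one called lower. These counts were near the shares of all genes tested, 12.0% higher and 14.9% lower. The median of the 7 was −0.25. Leaving out vehicle replicate 3, the median was −0.13, none was higher and 2 were lower, against 1660 and 1814 of all 13879 genes. The 2 were AGRN and PPM1K, a mitochondrial phosphatase gene near HERC5 that is named after its values were seen (−0.62, edgeR adjusted p = 3.68e-04, against −0.50 with all 8 libraries).

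The genes whose pattern across the 8 libraries was most like the mean pattern of the machinery were found by the root mean square difference of log2 CPM, each gene centred on its own mean. The closest was GYG2, a glycogenin, at 0.0754, followed by COL5A2, a fibrillar collagen, at 0.0889. ZNF608, the interferon-stimulated gene IFI27, the transcription factor TWIST1, PCK2, STAT2, MTMR11, APOL3 and RECK completed the nearest 10, the last at 0.123. The distances of the members from their own mean ran from 0.156 for HERC6 to 0.560 for UBA7. The 10 were picked as the nearest among all genes tested, so both sets of distances cannot be compared. Taken singly, the genes named for HERC5 were PHF11 (0.0625) and BTN3A2. UBE2L6 was closest to GSDME, BTN3A2 and ZFP14, and UBA7 to SLC15A3, to the interferon-induced tether BST2 and to DBP. For ISG15 the nearest were SDHAF4 and MXD3, for HERC6 STON1, LINC00578 and MSI2, and for USP18 PPM1M, EML2 and CRYL1.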

How the data were processed

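Gene counts were estimated by the authors. Per the submitters' processing notes and the study's methods, reads of strand-specific libraries were quantified with Salmon 1.4.0, and the transcript estimates were summed to genes with GENCODE 34. The values as deposited are estimated counts, neither normalized nor filtered, and 13.8% to 23.2% of all values of a library lay over 1e-06 from a whole number. They were rounded to whole numbers. Genes with over 1 CPM in at least 4 of 8 libraries were kept, libraries were scaled by TMM, and TP-472 was compared with vehicle with edgeR 4.0.16 (R 4.3.3, quasi-likelihood F test, no covariate). P-values were adjusted over all 14073 genes by the Benjamini-Hochberg method, and a gene was called at an adjusted p under 0.05 and a fold change over 1.5. Levels are TMM-scaled CPM, and ratios of genes used log2 CPM with a prior count of 2. Gene positions and lengths came from GENCODE 29, and 99.3% of the genes tested had a GC content. The fit was tested on simulated data before use. DESeq2 1.42.0 and limma 3.58.1 served as alternatives.

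The 6 genes, the 18 lists and the rule for named genes were chosen with earlier results of these data known. Named were the 6 genes, their close relatives and neighbours, every gene of the signalling, ligase and protease lists, in the other lists up to 4 called genes per direction with the largest change and a mean of at least 5 CPM, and the genes of most similar pattern. Some of these genes are not reported here. E2 and USP genes were listed by symbol. The symbols also matched E2 pseudogenes, which were left out of the count by gene type. No pair of libraries agreed within sampling noise (lowest mean chi-square per gene 12.8), so all 8 were counted as separate.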

Additional observations from a re-analysis of the deposited data

Results flagged for a closer look

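In the vehicle group, ISG15 in replicate 3 (419 CPM) lay far from the other 3 libraries, the gap to the nearest being 0.968 of the range of the group. UBA7 in the same library (38.0 CPM) was also apart from the others, with a gap of 0.920 of the range. Both exceed the 95% critical value of Dixon's test for 4 samples. In all, 12 groups of 4 values were examined and 2 had such a library, where chance gives about 1 in 20. The fall of both genes without that library is given above.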

How the results depend on the processing

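All 6 genes kept their direction and were called lower under each of 22 alternatives (other tests, scalings, filters and corrections, and each library left out in turn). Their log2 fold changes ran from −1.83 to −1.26 for ISG15, −2.50 to −2.13 for UBA7, −0.98 to −0.68 for UBE2L6, −0.92 to −0.76 for HERC5, −1.33 to −1.21 for HERC6 and −0.99 to −0.89 for USP18. ISG15 and UBA7 were smallest with the GC trend removed, and UBE2L6 was nearest to the threshold with the GC trend removed and the replicate block (edgeR adjusted p = 0.0485). A limit of 2-fold left 3 of the 6 called (ISG15, UBA7 and HERC6), and a test against a 1.5-fold change left 4, with UBE2L6 (edgeR adjusted p = 0.0508) and HERC5 (edgeR adjusted p = 0.121) not called.

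Over all genes, 3789 were called. The count was 1123 (529 higher, 594 lower) in the test against 1.5-fold, 2144 (1061 higher, 1083 lower) at an adjusted p under 0.01 and 1704 (639 higher, 1065 lower) over 2-fold. These are stricter limits by construction. DESeq2, with an adjusted p for 24115 genes, called 2666 higher, and the cause was not tested. With 1 library left out the count ran from 2486 (without TP-472 replicate 3) to 4110 (without vehicle replicate 2), and genes called lower from 1321 to 2325, with 1345 without TP-472 replicate 2 against 2096 in all 8. The replicate numbers did not pair the libraries (correlations of deviations from −0.18 to 0.12), and the replicate block gave 3055 genes with all 6 still called. The count of 9 pairs was 9 with a prior count of 0.5 and with unrounded counts. With the GC trend removed, added after seeing the data, it was 10, the same 9 and UBE2L6 with HERC6. With a library left out the exact permutation test cannot go below 0.0571 and no other test was run, and the 9 differences kept their sign. Of the 4 genes with a promoter sequence, those with the motif were 2 before the start alone and 2 with 1 mismatch allowed, when 37.7% of all promoters matched.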

Other observations

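UBB, a polyubiquitin gene in the list of modifiers related to ISG15 that most cells use heavily, was at 0 in 6 of 8 libraries and had at most 1 count in the others. It was singled out after its values were seen. A count of 0 allows up to 3 counts, or at most 0.0868 CPM, in these libraries, which covers counting error only.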
